A study of Mus musculus with 24 samples.

Results

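Messenger RNA of brain vessels was compared between 6 APP/PS1 and 6 WT XX mice, which gave 12 of the 24 libraries in the series. All 13738 genes with values were tested. APP/PS1 mice (APP below) carry transgenes of familial Alzheimer's disease and deposit amyloid-beta plaques in the brain. The 6 APP mice are labelled female with the genotype APP/PS+, and the 6 controls are labelled female and WT. Every mouse was 9 to 11 months old, untreated as far as the labels say, and vessels were pulled out with magnetic beads that bind CD31, which endothelial cells carry on their surface. Neither the strain nor the promoter of either transgene is given in the labels or the design text. Libraries bear names of 2 styles. APP replicates 1 and 2 have long names (a letter and 4 digits), APP replicates 3 to 6 have short ones, and all 6 WT libraries have long ones. The values of the long-named and the short-named APP libraries are therefore given apart for most of the genes described. Among the short-named APP libraries genotype and name style cannot be told apart in any comparison with WT.

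As background, brain capillaries are tubes of endothelial cells sealed by tight junctions, which form the blood-brain barrier, and they are wrapped by pericytes and astrocyte endfeet. Arterioles carry a coat of smooth muscle, and larger vessels are bordered by fibroblasts and macrophages. Near plaques, microglia leave their resting programme and switch on genes for lipid handling, phagocytosis and lysosomes. Cells that sense danger secrete cytokines and interferon beta, and interferon induces its own set of genes. Steroid hormones of the adrenal cortex act through the glucocorticoid receptor, which brain endothelium expresses and which induces a known set of target genes.

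Values are CPM, reads scaled to a common library total, and a level in CPM is not per length, so it is compared between libraries and not between genes. Differences are APP minus WT on the log2(CPM + 1) scale, fitted with limma over all genes and adjusted by the Benjamini-Hochberg method. A gene is called at an adjusted p under 0.05. Brackets hold the difference, its standard error (SE) and the adjusted p, and where 3 WT values are given they are the lowest, the median and the highest of the 6 mice. The XX libraries held 52.39 to 75.93 M reads. Xist, the RNA that silences an X chromosome, was at 328 to 482 CPM in all 12, and Ddx3y, a Y-linked gene, was at most 0.379 CPM, as the sex labels have it. App (-0.02, SE 0.09, adjusted p = 0.92) and Thy1 (0.35, SE 0.27, adjusted p = 0.48) overlapped between the genotypes. Prnp was higher in every APP library, at 430.1 CPM in the highest and 283 in the lowest against 241 to 268 in WT, but was not called (0.33, SE 0.12, adjusted p = 0.099). No called transcript therefore checks the genotype labels. WT replicate 3 stood apart from the other 5 WT mice, with low smooth muscle genes and high interferon genes, and results that turn on it are given without it as well. The 16 general endothelial genes summed to 17949 to 18990.0 CPM in long-named APP, 17373 to 18917 in short-named APP and 17062 to 18838 in WT, so endothelial RNA was abundant in every library. In whole vessel preparations fewer cells of a type and less RNA per cell cannot be told apart.

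With all 6 APP mice against 6 WT mice, 332 genes were higher (2.42% of those tested) and 405 were lower (2.95%), 737 in all (5.36%), while the median of all genes was 0.006. Without WT replicate 3 the numbers were 252 (1.83%) and 429 (3.12%), 4.96% in all. Every APP library lay above every WT library for 202 genes (1.47%) and below for 320 (2.33%). Among the called genes these were 128 and 203. Single mice moved these counts: leaving out 1 library in turn gave 148 to 491 higher and 190 to 513 lower, with the fewest without WT replicate 6 and the most without APP replicate 2. Fits without APP replicate 3, 4, 5 or 6 or WT replicate 2 or 5 gave 156 to 196 higher and 198 to 263 lower. Of the called genes, 118 higher and 163 lower (2.05% of all genes) kept their call in all 12 such fits, and each gene given below with its own values as called with all 6 APP mice is one of these, unless libraries are named whose omission ended its call. Counts over a gene list are calls with all 12 mice, and they include calls that some of these fits ended. The shares to set beside such counts are 2.42% of all genes higher and 2.95% lower. The lists were chosen with earlier results of these data known, so a count above these shares is no test of a list. The 2 long-named APP mice alone gave 23 higher (0.167%) and 3 lower (0.0218%), and the 4 short-named ones gave 946 (6.89%) and 997 (7.26%), 14.1% in all. Between the long-named and the short-named APP mice themselves, 67 genes were higher in short-named (0.488%) and 70 lower (0.51%), 0.997% in all.

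The 3 largest rises were Cst7, Clec7a and Itgax, which belong to the microglial programme seen beside plaques. Cst7, which encodes an inhibitor of lysosomal proteases (chromosome 2, 150570415 to 150578944 of mm10), was at 149 and 103 CPM in the long-named APP libraries and at 117, 105, 28.02 and 25.8 in the short-named ones. In WT its lowest, median and highest values were 0.802, 1.89 and 2.405 CPM, far below any APP mouse (4.78, SE 0.48, adjusted p = 4.4e-06). Clec7a, which encodes a myeloid receptor for fungal sugars (chromosome 6, 129461591 to 129472779), stood at 53.8 and 35.5 (long-named) and 31.6, 33.6, 11.4 and 15.3 (short-named) CPM against 0.831, 1.73 and 2.92 in WT (3.37, SE 0.35, adjusted p = 5.1e-06). Itgax, which encodes the integrin CD11c (chromosome 7, 128129547 to 128150657), had 72.9 and 52.95 (long-named) and 53.02, 78.7, 29.5 and 26.4 (short-named) CPM in APP, and 2.04, 5.45 and 6.01 in WT (3.18, SE 0.31, adjusted p = 4.4e-06). In each of these genes the groups did not overlap. APP replicates 5 and 6, both short-named, were the lowest of the 6 APP mice for all 3 genes.

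Among 24 genes measured on the list for plaque-associated microglia, 15 were called higher and 0 lower, against 2.42% of all genes called higher, with a median of 0.80 (all genes 0.006). Every APP library lay above every WT library in 12 of the 24, against 1.47% of all genes. Leaving out 1 library gave 12 to 16 higher. Lpl, which encodes the lipase that releases fatty acids from lipoproteins, was at 70.5 and 44.3 CPM in long-named and 26.9, 43.6, 24.1 and 36.3 in short-named APP, against 5.96, 9.24 and 12.7 in WT (1.93, SE 0.24, adjusted p = 4.2e-05). Spp1, the gene of the secreted phosphoprotein osteopontin, reached 29.3 and 57.3 (long-named) and 31.2, 50.9, 17.1 and 19.4 (short-named) CPM, and in WT 3.88, 7.09 and 10.6 (2.07, SE 0.29, adjusted p = 0.00024). Ank, which encodes an exporter of pyrophosphate, differed less but with little spread, at 129.8 and 106 (long-named) and 133, 127, 93.5 and 99.4 (short-named) CPM against 54.6, 65.8 and 69.2 (0.81, SE 0.10, adjusted p = 3.9e-05). Igf1, the growth factor gene, was named after its values were seen. It was at 16.1 and 11.3 CPM in long-named APP, 4.58, 5.66, 1.73 and 1.69 in short-named APP and 0.0473, 0.345 and 0.992 in WT, and it was the one gene of the list that differed between the name styles, lower in short-named (-1.84, SE 0.38, adjusted p = 0.016). Tested genes had 1 CPM or more in at least 12 of the 24 libraries. Igf1 met this through its APP libraries alone, since its highest WT values were 0.992 CPM in XX and 0.689 in XY mice. The list's median was 1.02 with the 2 long-named mice and 0.69 with the 4 short-named ones. With the long-named mice alone 8 of the 24 were called higher, against 0.167% of all genes.

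**Figure D1:**
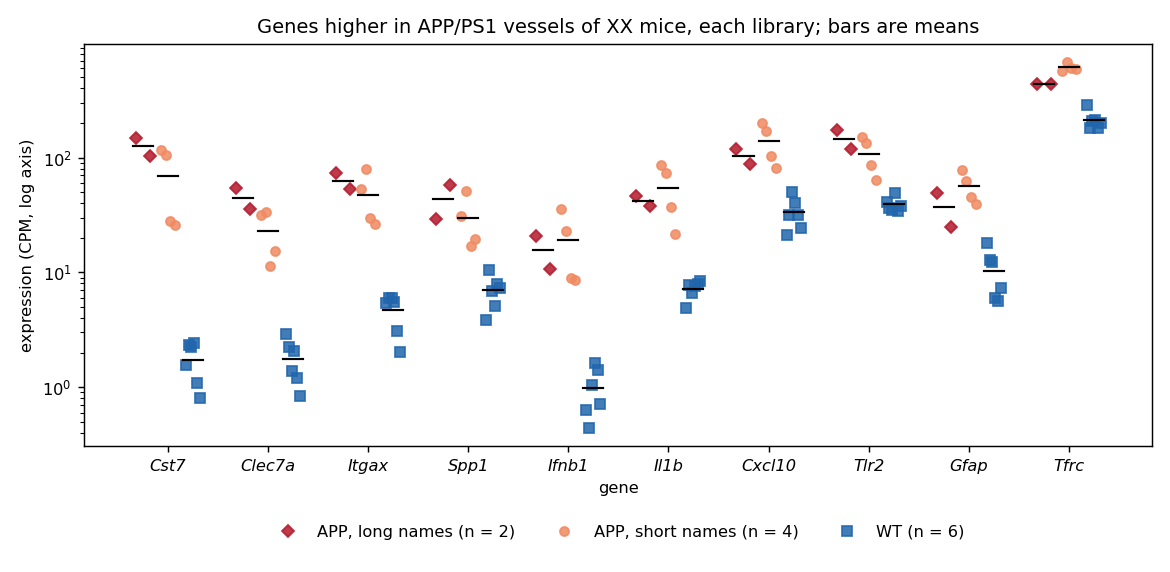
Each point is 1 library of an XX mouse, on a logarithmic axis of CPM, for 10 genes that rose; diamonds are the 2 long-named APP libraries, circles the 4 short-named ones, squares the 6 WT ones, and bars are means. In all 10 genes every APP point lies above every WT point, as for Cst7 with 25.8 CPM in the lowest APP library and 2.40 in the highest WT one.

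Markers of resting microglia were not called. Of 12 measured genes of that list 0 were called either way, with 0 also in each fit that left out 1 library and 3 at an unadjusted limma p under 0.05, and its median was -0.28. Their summed level was 3249 to 4726 CPM in long-named APP, 2911 to 3947 in short-named APP and 3166 to 7007 in WT, and these ranges overlap. Among 9 border macrophage genes, those of macrophages that sit along vessels and meninges, Siglec1 rose and Stab1 fell. Siglec1, a sialic acid receptor also known as CD169, was at 2.82 and 2.28 CPM in long-named APP and 7.599, 2.58, 2.86 and 3.06 in short-named APP, with 0.554, 0.897 and 1.11 in WT (1.22, SE 0.19, adjusted p = 0.00095). APP replicate 3 stood well above the other 5, and the call held without it. Stab1, a scavenger receptor of endothelium and macrophages, was at 410.4 and 369 (long-named) and 351, 255, 309.6 and 275 (short-named) CPM against 399.6, 468 and 551 in WT, with 1 long-named value inside the WT range (-0.55, SE 0.12, adjusted p = 0.0095). For T and NK cells (7 genes measured) and B cells (6 measured) limma called 0 genes, with 0 and 0 at an unadjusted p under 0.05.

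Among 12 measured checkpoint and inhibitory receptor genes 2 rose and 1 fell, against 2.42% of all genes called higher and 2.95% lower. Pdcd1, which encodes the checkpoint receptor PD-1, was at 8.33 and 5.78 CPM in long-named APP, at 8.18, 9.32, 3.23 and 4.02 in short-named APP and at 0.498, 0.616 and 1.69 in WT (1.98, SE 0.27, adjusted p = 0.00014). Lilrb4a, an inhibitory receptor of myeloid cells, was at 52.8 and 37.3 (long-named) and 32.5, 23.4, 13.9 and 13.1 (short-named) CPM against 3.81, 5.26 and 13.002 (1.94, SE 0.34, adjusted p = 0.0022), and its highest WT value came from replicate 3. Both were separated from WT in every library. Baiap2l2, a gene of the family that bends membranes, showed the same separation at 13.4 and 9.51 (long-named) and 8.39, 6.97, 5.38 and 3.23 (short-named) CPM against 0.414, 0.936 and 1.53 (2.09, SE 0.26, adjusted p = 4.2e-05). Of 19 lipid handling genes 5 were called higher and 1 lower, against 2.42% and 2.95% of all genes. The numbers were 3 to 5 and 1 to 2 when 1 library was left out. Apoe, which encodes the main lipid carrier of the brain, was at 2037 and 1515 CPM in long-named APP, 1630.5, 1507, 1654 and 1753 in short-named APP and 833, 980.4 and 1313 in WT (0.74, SE 0.16, adjusted p = 0.0079). Soat1, which esterifies cholesterol for storage, rose by 0.76 (SE 0.17, adjusted p = 0.011), with long-named values of 22.3 and 20.6 CPM, the lower of them inside the WT range of 12.7 to 21.01, and short-named values of 27.1 to 29.9, all above it.

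Of 17 measured cytokine and chemokine genes 9 rose, against 2.42% of all genes called higher, and 0 fell, with a median of 1.07, and the count was 7 to 10 when 1 library was left out. Ifnb1, the gene of interferon beta itself (chromosome 4, 88522025 to 88522774), reached 20.7 and 10.7 CPM in long-named and 35.6, 22.8, 8.84 and 8.53 in short-named APP, against 0.443, 0.882 and 1.62 in WT (3.10, SE 0.36, adjusted p = 3.9e-05). Il1b, the gene of interleukin 1 beta (chromosome 2, 129364570 to 129371139), was at 46.4 and 37.8 (long-named) and 86.5, 73.4, 37.03 and 21.6 (short-named) CPM against 4.92, 7.68 and 8.43 (2.52, SE 0.32, adjusted p = 8.5e-05). Neither gene overlapped between the genotypes, and both were called with the long-named mice alone (3.04, SE 0.53, adjusted p = 0.0095 and 2.40, SE 0.47, adjusted p = 0.031). Tnf, the gene of tumour necrosis factor, was named after its values were seen, and it was at 329.5 and 229 (long-named) and 462, 387, 209 and 141 (short-named) CPM against 87.6, 117 and 136 (1.26, SE 0.29, adjusted p = 0.013). Ccl4, a chemoattractant of monocytes and T cells, had 611 and 413 (long-named) and 1006, 693, 624 and 519.9 (short-named) CPM in APP and 252, 268 and 369.9 in WT (1.14, SE 0.24, adjusted p = 0.0068). Cxcl16, a membrane-bound chemokine and scavenger receptor, rose from 17.99 to 24.6 CPM in WT to 40.5 and 54.3 in long-named and 29.8 to 55.8 in short-named APP (1.07, SE 0.22, adjusted p = 0.0067).

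Several interferon-inducible genes were higher too, and 3 of their promoters are shown because they hold the letters of the element through which interferon is known to act. The windows shown are the 250 bases before the transcription start from RefSeq (GRCm38.p6, the assembly of mm10), written 5′ to 3′ on the gene's strand, for Cxcl10 (chr5:92348890-92349139, minus strand), Isg15 (chr4:156200819-156201068, minus strand) and Ifi207 (chr1:173741810-173742059, minus strand). Capitals mark the interferon-stimulated response core (GAAA, any 2 bases, GAAA) and, in Cxcl10, also the NF-kB element (GGGA, any base, TT, any base, CC), each searched on both strands.
Cxcl10: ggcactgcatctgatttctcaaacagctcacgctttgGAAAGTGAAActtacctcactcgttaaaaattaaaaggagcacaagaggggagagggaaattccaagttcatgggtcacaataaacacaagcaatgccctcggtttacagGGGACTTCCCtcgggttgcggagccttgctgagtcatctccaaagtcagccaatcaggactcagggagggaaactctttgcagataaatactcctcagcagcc
Isg15: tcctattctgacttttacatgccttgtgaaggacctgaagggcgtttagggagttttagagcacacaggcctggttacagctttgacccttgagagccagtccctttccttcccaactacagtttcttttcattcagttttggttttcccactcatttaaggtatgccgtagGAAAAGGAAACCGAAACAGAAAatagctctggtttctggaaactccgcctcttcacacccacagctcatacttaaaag
Ifi207: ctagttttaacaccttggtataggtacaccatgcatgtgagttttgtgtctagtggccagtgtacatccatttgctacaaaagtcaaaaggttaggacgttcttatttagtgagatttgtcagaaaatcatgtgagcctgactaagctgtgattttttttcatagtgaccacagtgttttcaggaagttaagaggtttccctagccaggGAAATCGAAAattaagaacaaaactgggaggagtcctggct
The Cxcl10 window held the interferon core 213 to 204 bases before the start and the NF-kB element 103 to 94 bases before it. That of Isg15 held 3 overlapping interferon cores between 78 and 57 bases before the start, and that of Ifi207 held 1 at 41 to 32. The core was present in 9 of the 17 genes of the interferon response list that had a window, and in 3 of the 6 called ones with a window. It was in 3.16% of the 10475 tested genes with a window, while the NF-kB element was in 1.31%. Of called genes with a window the core was in 11 of 228 that were higher and 5 of 331 that were lower. A match is a run of letters and no measure of binding.

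Of 25 interferon response genes 7 were called higher, against 2.42% of all genes, and 0 lower, with a median of 0.35. Without WT replicate 3, whose interferon genes were high, 11 were called higher, against 1.83% of all genes in that fit, and over the 12 fits that left out 1 library the number was 3 to 11. Among the 7 is Ifi44l, at 12.8 to 26.4 CPM in short-named APP, 0 and 0.0178 in long-named APP and at most 0.0191 in WT. With the long-named mice alone 1 of the 25 was called, against 0.189% of all genes. With the short-named ones 7 were called higher, against 6.89%, and the medians were 0.32 and 0.31. Cxcl10, the interferon-induced chemokine gene, was at 119 and 88.4 CPM in long-named APP, 200.4, 169.9, 103 and 80.97 in short-named APP and 21.3, 31.5 and 50.3 in WT (1.88, SE 0.32, adjusted p = 0.0021). Ifi207, of the HIN family of nucleic acid sensors, was at 11.5 and 6.92 (long-named) and 10.8, 7.98, 4.42 and 3.21 (short-named) CPM against 1.28, 1.53 and 2.23 (1.57, SE 0.27, adjusted p = 0.0021). Ifi204, of the same family, was at 15.99 and 11.2 (long-named) and 12.4, 10.7, 5.16 and 7.47 (short-named) CPM against 2.32, 3.86 and 5.49, with 1 short-named library inside the WT range (1.23, SE 0.29, adjusted p = 0.014); the family's members are near copies, so reads could be shared. Isg15, a ubiquitin-like protein gene named after its values were seen, rose by 0.59 (SE 0.16, adjusted p = 0.03) and Ifi44 by 0.84 (SE 0.22, adjusted p = 0.028). Isg15 was at 68.7 and 86.8 CPM in long-named and 56.9 to 109 in short-named APP, and Ifi44 at 42.7 and 51.2 in long-named and 46.2 to 95.3 in short-named APP. Both had their highest WT value in replicate 3, at 85.5 and 64.4 CPM against WT medians of 51.8 and 29.9. The call of Isg15 ended without APP replicate 3 or 4 or WT replicate 1, 2, 5 or 6, at adjusted p = 0.051 to 0.081, and that of Ifi44 without APP replicate 3 or 4 or WT replicate 1, 5 or 6, at 0.053 to 0.077.

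Genes of pathogen sensing and NF-kB signalling moved in both directions. Tlr2, a receptor for bacterial lipoproteins, was at 173 and 119 CPM in long-named APP, 149.7, 135, 85.4 and 63.2 in short-named APP and 34.5, 37.3 and 49.2 in WT (1.54, SE 0.25, adjusted p = 0.0014). Tnfaip2, a gene induced by tumour necrosis factor, was at 49.97 and 48.6 (long-named) and 51.6, 46.1, 38.6 and 26.7 (short-named) CPM against 17.9, 21.6 and 22.9 (0.99, SE 0.18, adjusted p = 0.0034). Rela, which encodes the p65 subunit of NF-kB, fell by 0.33 (SE 0.07, adjusted p = 0.0081), from 197 to 232 CPM in WT to 186 and 197 in long-named and 146 to 184 in short-named APP. The list of pattern recognition and NF-kB control held 20 measured genes, of which 3 rose and 1 fell, against 2.42% and 2.95% of all genes. The remaining riser, the inflammasome gene Nlrp3, was higher in every APP library (55.6 to 117 CPM in short-named, 72.8 and 92.2 in long-named) than in WT (27.5 to 45.6), but its call (1.14, SE 0.33, adjusted p = 0.046) held in only 1 of the 12 fits, without APP replicate 2, and ended in the other 11 at adjusted p = 0.054 to 0.095. Of 16 complement genes and of 18 antigen presentation genes limma called 0, with 3 and 1 at an unadjusted p under 0.05. Without WT replicate 3 the numbers higher were 1 and 3.

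Other innate signalling genes fell. Nod2, a sensor of bacterial cell wall fragments (chromosome 8, 88647315 to 88688474), was at 22.3 and 27.3 CPM in long-named APP, 16.6, 16.5, 24.3 and 18.4 in short-named APP and 37.1, 60.1 and 73.97 in WT (-1.40, SE 0.18, adjusted p = 0.00011). Irak2, a kinase that relays interleukin 1 and Toll-like receptor signals, was at 78.6 and 93.9 (long-named) and 62.2, 63.6, 72.3 and 64.3 (short-named) CPM against 124, 167 and 263 (-1.24, SE 0.23, adjusted p = 0.003). Il1r1, the receptor gene for interleukin 1, on a list of venous endothelial genes, was at 183 and 251 (long-named) and 127, 149, 114 and 144 (short-named) CPM against 218, 286 and 344 (-0.85, SE 0.18, adjusted p = 0.007). All WT values of Nod2 and Irak2 were above all APP values, whereas 1 long-named library reached into the WT range of Il1r1. These falls are set beside the rise of the ligand gene Il1b and of Tlr2 as measured, and whether they lie in the same cells was not tested.

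The falls with the clearest separation from WT included genes of an oxidase, a potassium channel and an adaptor protein. Lao1, an amino acid oxidase (chromosome 4, 118961578 to 118968912), was at 1.42 and 2.24 CPM in long-named APP, at 0.461, 0.545, 0.135 and 0.439 in short-named APP and at 4.603, 9.27 and 12.9 in WT (-2.41, SE 0.30, adjusted p = 4.2e-05). Kcna5, which encodes a voltage-gated potassium channel (chromosome 6, 126532551 to 126535412), was at 8.24 and 13.2 (long-named) and 3.95, 6.66, 3.76 and 5.48 (short-named) CPM against 18.9, 22.1 and 41.2 (-1.81, SE 0.25, adjusted p = 0.00023). Cttnbp2nl, a relative of a cortactin-binding protein (chromosome 3, 105001915 to 105053146), was at 224 and 296 (long-named) and 230.5, 227, 230.5 and 226 (short-named) CPM against 426, 521 and 673 (-1.17, SE 0.15, adjusted p = 0.00011). All 3 were lower in every APP library than in every WT library. Usp54, of the ubiquitin-specific peptidase family, fell by 1.31 (SE 0.21, adjusted p = 0.0012), with 164 and 227 CPM in long-named, 149 to 189 in short-named APP and 247 to 594 in WT. Hsf2bp, which encodes a protein that binds a heat shock factor, fell from 2.25 to 4.62 CPM in WT to 1.14 and 1.405 (long-named) and 0.1203 to 0.558 (short-named) (-1.44, SE 0.26, adjusted p = 0.0024). Slco4a1, an organic anion transporter gene (-1.20, SE 0.30, adjusted p = 0.023), and Abhd15, a hydrolase gene (-1.33, SE 0.33, adjusted p = 0.021), were also below WT in every APP library. Their calls ended without APP replicate 4 or without WT replicate 2, at adjusted p = 0.059 to 0.061.

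The long-named APP mice, which share their name style with WT, called 3 genes lower. They were Cttnbp2nl (-1.05, SE 0.20, adjusted p = 0.022), Nod2 (-1.14, SE 0.22, adjusted p = 0.024) and Sorbs3, which encodes the adhesion protein vinexin and was named after its values were seen (-0.67, SE 0.14, adjusted p = 0.045). Sorbs3 was at 356 and 428 CPM in long-named APP, 342, 301, 334 and 358 in short-named APP and 508, 634 and 701 in WT. Of the 26 genes called with these 2 mice, 25 were also called with all 6, which include them. The one that was not, Cd52, a lymphocyte and myeloid surface antigen gene, was at 65.4 and 52.2 CPM in long-named APP and 37.6, 38.9, 15.6 and 18.1 in short-named APP, against 9.198, 15.4 and 17.95 in WT (2.01, SE 0.40, adjusted p = 0.032 with the long-named mice; 1.23, SE 0.38, adjusted p = 0.06 with all 6). At an unadjusted p under 0.05, 1065 genes differed with the 2 long-named mice, and with 1 of these or of the WT mice left out the calls were 6 to 27 higher and 0 to 8 lower.

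**Figure D2:**
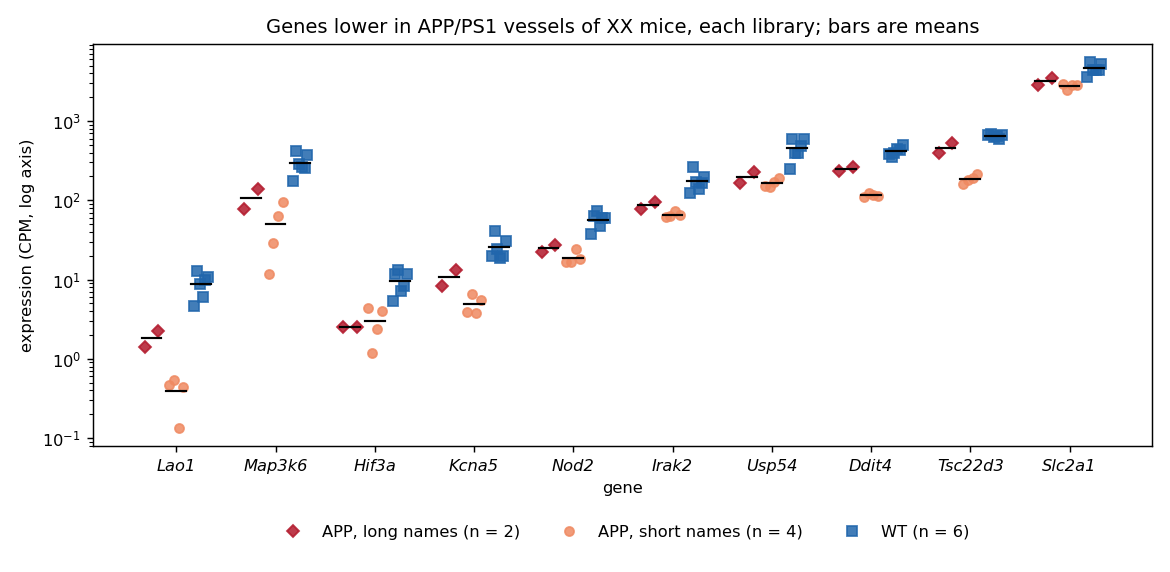
Each point is 1 library of an XX mouse, on a logarithmic axis of CPM, for 10 genes that fell; diamonds are the 2 long-named APP libraries, circles the 4 short-named ones, squares the 6 WT ones, and bars are means. In all 10 every APP point lies below every WT point, and in Ddit4 and Tsc22d3 the long-named points lie between the short-named and the WT points.

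Genes that glucocorticoid hormones induce were lower. Of 21 measured 10 fell and 0 rose, against 2.95% of all genes called lower, and the median was -0.56. The count was 5 to 11 when 1 library was left out, and 7 without WT replicate 3. Tsc22d3, which encodes the hormone-induced leucine zipper protein GILZ (chromosome X, 140539528 to 140600659), was at 390.3 and 527 CPM in long-named APP, 162, 180.4, 192 and 215 in short-named APP and 599, 649.8 and 687 in WT (-1.36, SE 0.27, adjusted p = 0.0052). Ddit4, which encodes an inhibitor of the growth kinase mTORC1 that hormone and low oxygen both induce (chromosome 10, 59949669 to 59951834), was at 231 and 263 (long-named) and 109, 125, 116 and 112 (short-named) CPM against 351, 412 and 491 (-1.47, SE 0.26, adjusted p = 0.0026). Map3k6, a stress kinase gene (chromosome 4, 133240818 to 133252929), was at 77.7 and 137 (long-named) and 11.6, 28.7, 63.6 and 94.5 (short-named) CPM against 175, 273 and 418 (-2.39, SE 0.46, adjusted p = 0.0043). None of these 3 overlapped between genotypes. Angptl4, a secreted inhibitor of lipoprotein lipase, fell by 1.24 (SE 0.25, adjusted p = 0.0058), with 21.5 and 31.2 (long-named) and 32.4, 18.5, 11.8 and 15.3 (short-named) CPM against 26.7, 48.3 and 78.2 in WT, and 1 value of each name style lay inside the WT range. The clock gene Per1, also a hormone target, fell by 0.89 (SE 0.19, adjusted p = 0.0075), from 648 to 814 CPM to 539 and 674 in long-named and 255 to 349 in short-named APP, the higher long-named value lying inside the WT range.

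For some genes this fall differed between the name styles. Short-named APP mice were lower than long-named ones for Tsc22d3 (-1.28, SE 0.28, adjusted p = 0.029) and Per1 (-0.94, SE 0.21, adjusted p = 0.026), and 12 genes of the list were called lower with the short-named mice, against 7.26% of all genes. With the long-named ones limma called 0, with 6 at an unadjusted p under 0.05. The list's median was -0.43 with the long-named mice and -0.56 with the short-named ones. Rasd1, a small GTPase gene named for its induction by dexamethasone and not a member of the list, was at 216 and 257 CPM in long-named APP, within the WT values of 190.0, 266 and 318, and 72.2, 50.02, 52.5 and 57.5 in short-named APP. It fell by 1.48 with all 6 mice (SE 0.33, adjusted p = 0.01), and short-named mice were -2.02 from long-named ones (SE 0.24, adjusted p = 3.2e-05). Tmem252, a membrane protein gene, behaved alike, at 276 and 447 (long-named) and 92.04, 92.9, 103 and 124 (short-named) CPM against 264, 500.0 and 531 in WT (-1.50, SE 0.34, adjusted p = 0.013). For these genes the difference with all 6 mice lies in the short-named libraries, in which genotype and name style cannot be told apart.

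Promoters of 2 of the strongest falls are shown because each holds the letters of a whole glucocorticoid receptor element. Map3k6 is on the glucocorticoid list and Kcna5 is not. They are the 250 bases before the start of Map3k6 (chr4:133240568-133240817, plus strand) and Kcna5 (chr6:126535556-126535805, minus strand) from RefSeq (GRCm38.p6), 5′ to 3′ on the gene's strand, with the element (GNACA, any 3 bases, TGTNC) in capitals. The pattern reads the same on both strands.
Map3k6: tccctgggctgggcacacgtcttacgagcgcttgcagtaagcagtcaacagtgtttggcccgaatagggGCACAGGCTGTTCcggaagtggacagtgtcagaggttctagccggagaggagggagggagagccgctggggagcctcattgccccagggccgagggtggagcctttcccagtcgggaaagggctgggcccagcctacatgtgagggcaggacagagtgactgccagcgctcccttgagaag
Kcna5: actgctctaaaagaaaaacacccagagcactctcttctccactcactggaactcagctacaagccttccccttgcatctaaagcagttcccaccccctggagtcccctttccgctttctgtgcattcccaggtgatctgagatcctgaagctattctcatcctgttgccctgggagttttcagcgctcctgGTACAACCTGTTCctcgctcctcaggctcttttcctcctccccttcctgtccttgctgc
The element lay 181 to 169 bases before the start of Map3k6 and 59 to 47 bases before that of Kcna5. It was in 0.353% of the 10475 tested genes with a window. Of the called genes with a window it was in 4 of 331 that were lower, the other 2 being Tinagl1 and Fam107a, and in 0 of 228 that were higher. On the glucocorticoid list it was in 3 of the 18 genes with a window, but in only 1 of the 9 called ones with a window. A gene without a match only lacks these letters in this window.

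Genes of the oxygen-sensing pathway moved in both directions. The pathway's transcription factor HIF is marked for destruction by prolyl hydroxylases when oxygen is present. Egln3, one of these hydroxylases and itself a HIF target, was at 8.51 and 7.01 CPM in long-named APP, 5.07, 8.05, 3.47 and 2.04 in short-named APP and 0.554, 0.769 and 1.01 in WT (1.80, SE 0.25, adjusted p = 0.0002). Hif1a, the factor's main subunit, was at 157 and 153 (long-named) and 134, 176, 116 and 135 (short-named) CPM against 84.9, 95.5 and 105 (0.60, SE 0.10, adjusted p = 0.002). Hif3a, a subunit with inhibitory forms (chromosome 7, 17031507 to 17062427), went the other way, at 2.503 and 2.51 (long-named) and 4.36, 1.201, 2.35 and 4.04 (short-named) CPM against 5.42, 10.02 and 13.2 (-1.48, SE 0.28, adjusted p = 0.0043). Each of these genes was separated from WT in every library. Of the 21 measured genes 2 rose and 6 fell, against 2.42% and 2.95% of all genes, with a median of -0.01. The falls include Ddit4 (-1.47, SE 0.26, adjusted p = 0.0026) and Slc2a1 (-0.67, SE 0.15, adjusted p = 0.0098), each below WT in every APP library. Egln3 and Hif1a were the 2 of the list called with the long-named mice alone, against 0.189% of all genes. Of 17 glycolysis genes limma called 0, with 3 at an unadjusted p under 0.05.

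Among endothelial genes a few transporters, receptors and ligands changed. Of 16 general endothelial genes 1 rose and 0 fell; of 16 junction genes and of 14 efflux and solute transporter genes limma called 0, with 2 and 2 at an unadjusted p under 0.05. The medians of these 3 lists were 0.01, 0.05 and -0.05. The riser was Kdr, the main receptor gene for vascular endothelial growth factor, at 1034 and 1038 CPM in long-named APP, 1108, 919, 943 and 1008 in short-named APP and 634, 779.9 and 868 in WT (0.43, SE 0.10, adjusted p = 0.013). Among 13 capillary genes 3 rose and 1 fell, against 2.42% and 2.95% of all genes. Tfrc, the transferrin receptor gene through which the barrier takes up iron, was at 437 and 436 (long-named) and 572, 676, 606 and 585 (short-named) CPM against 182, 203 and 286 (1.38, SE 0.23, adjusted p = 0.0018). Cxcl12, a chemokine gene that endothelium secretes, was at 2209 and 2230.5 (long-named) and 2307, 2305, 2621 and 3212 (short-named) CPM against 1194, 1626 and 2007 (0.67, SE 0.13, adjusted p = 0.0038). Slc2a1, whose product carries glucose across the barrier, was at 2807 and 3493 (long-named) and 2901, 2474, 2829.8 and 2831 (short-named) CPM against 3635, 4443 and 5499.7 (-0.67, SE 0.15, adjusted p = 0.0098). In Tfrc, Cxcl12 and Slc2a1 no APP library overlapped a WT library. The lactate transporter gene Slc16a1 was called higher with all 6 mice (1.04, SE 0.30, adjusted p = 0.042), but its long-named values of 359.9 and 546 CPM lay in and just above the WT range of 293 to 457 and its short-named values were 1123, 1037, 929.7 and 977. That call held in 3 of the 12 fits, without APP replicate 1 or 2 or WT replicate 3, and ended in the other 9 at adjusted p = 0.058 to 0.1.

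Ferritin, the iron store, was higher as well. Fth1, the ferritin heavy chain gene, was at 1169 and 1066 CPM in long-named APP and 1491, 1507, 1416 and 1214 in short-named APP, with 843, 914 and 1168 in WT, where the highest value was replicate 3 (0.47, SE 0.11, adjusted p = 0.013). Of 16 iron handling genes 3 rose and 0 fell, against 2.42% of all genes called higher and 2.95% lower. Of 16 arterial genes 2 were called lower, against 2.95% of all genes, and 0 higher, with 1 to 2 lower when 1 library was left out. Sema3g, an arterial guidance gene, was at 552 and 608 (long-named) and 549.6, 483, 456 and 344 (short-named) CPM against 652, 747 and 808 (-0.57, SE 0.13, adjusted p = 0.014), below WT in every mouse. Gja4, the arterial connexin gene, was at 81.1 and 85.3 (long-named) and 39.8 to 67.3 (short-named) CPM against 71.96 to 133 (-0.62, SE 0.16, adjusted p = 0.028), and its call ended without APP replicate 4, 5 or 6 or WT replicate 4, 5 or 6, at adjusted p = 0.063 to 0.078. Of 13 venous genes 1 fell, Il1r1 given above, and the list's median was 0.07 with the long-named mice and -0.46 with the short-named ones.

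Growth factor signalling to the vessel wall changed in single components. Pdgfb, the ligand gene by which endothelium recruits pericytes, was at 581 and 456 CPM in long-named APP, 575, 549.7, 489 and 524 in short-named APP and 303, 366 and 446 in WT (0.53, SE 0.12, adjusted p = 0.011). Cxcr4, the receptor gene for Cxcl12 and a marker of sprouting tips, rose by 0.89 (SE 0.20, adjusted p = 0.01), with 17.7 to 23.98 CPM in short-named APP above WT (6.3002 to 13.5) and 11.6 and 12.5 in long-named APP within it. Of 27 genes of TGF-beta and BMP signalling 4 were called higher and 1 lower, against 2.42% and 2.95% of all genes. The numbers were 3 to 4 and 1 to 3 when 1 library was left out. The ligand gene Tgfb2 was at 154 and 141 (long-named) and 159, 189.6, 185 and 215 (short-named) CPM against 73.2, 107 and 124 (0.72, SE 0.15, adjusted p = 0.0079). Of the BMP signal carriers, Smad1 was lower in every APP mouse (48.9 and 53.04 (long-named) and 40.3 to 45.05 (short-named) CPM against 54.3 to 78.6; -0.61, SE 0.12, adjusted p = 0.0057). Smad9 was higher (0.81, SE 0.19, adjusted p = 0.017), with the highest of its WT values, 10.7 CPM in replicate 1, above the lowest APP value of 10.5. Fzd4, the receptor gene through which Wnt and norrin signals maintain the barrier, fell by 0.54 (SE 0.13, adjusted p = 0.016), with long-named values of 142 and 185 CPM, short-named values of 106, 112, 120.2 and 141 and 152, 195 and 231 in WT.

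Of 16 coagulation and fibrinolysis genes 4 were called higher and 2 lower with all 12 mice, against 2.42% and 2.95% of all genes. Only 1 of these 6 calls held in all 12 fits that left out 1 library. Those fits gave 1 to 4 higher and 0 to 2 lower, and without WT replicate 3 the numbers were 2 and 2. Plat, the tissue plasminogen activator gene, was at 517 and 779 (long-named) and 464, 454, 660.5 and 674 (short-named) CPM against 583, 991 and 1101 (-0.67, SE 0.16, adjusted p = 0.017), and its call ended without APP replicate 4, at adjusted p = 0.052. Of 16 chaperone genes 4 were called lower, against 2.95% of all genes, with 1 to 6 when 1 library was left out and 1 without WT replicate 3. Bag3, a co-chaperone gene of stressed proteins, was at 100.1 and 116 (long-named) and 89.5, 97.1, 91.01 and 87.5 (short-named) CPM against 104, 141 and 163, with 1 long-named value inside the WT range (-0.51, SE 0.10, adjusted p = 0.0043). Hspa1a and Hspa1b, near copies whose reads could be shared, were at 1006 to 2738 and 1974 to 5866 CPM in WT, lowest in replicate 1. Their short-named values were 887 to 1246 and 1776 to 2405, and their long-named values 1117 and 1322 for Hspa1a and 2163 and 2819.5 for Hspa1b. Their calls (-0.82, SE 0.23, adjusted p = 0.039; -0.92, SE 0.26, adjusted p = 0.039) held only without APP replicate 2 or WT replicate 1 and, for Hspa1a, APP replicate 1, and ended otherwise at adjusted p = 0.05 to 0.11.

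**Figure D3:**
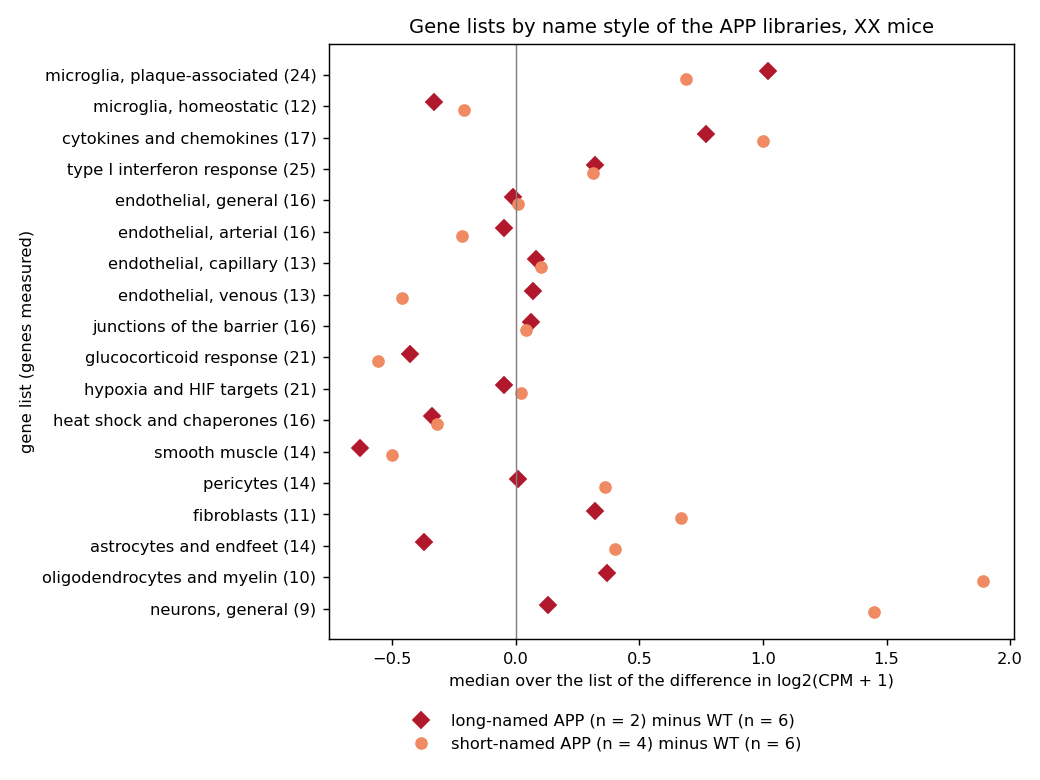
Each row is a gene list with its number of measured genes, and the horizontal axis is the median over the list of the difference from WT in log2(CPM + 1); diamonds are the 2 long-named APP mice minus 6 WT mice and circles the 4 short-named APP mice minus the same WT mice. Plaque-associated microglia, cytokines, glucocorticoid response and smooth muscle lie on the same side of 0 in both sets, while oligodendrocytes (0.37 and 1.89) and neurons (0.13 and 1.45) lie much farther from 0 in the short-named set.

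For smooth muscle genes the calls turned on WT replicate 3. Of 14 measured genes 1 was called lower and 1 higher with all 12 mice, and the median was -0.55. Acta2, the smooth muscle actin gene, was at 228 and 229 CPM in long-named APP and 203, 309, 264 and 277 in short-named APP. In WT it was at 163 in replicate 3 and at 442.96 to 546 in the other 5. Lmod1, which nucleates actin filaments in muscle, showed the same picture, at 16.7 and 17.8 (long-named) and 15.9 to 18.02 (short-named) CPM in APP, 12.01 in WT replicate 3 and 33.2 to 38.3 in the other WT mice. With all mice neither was called (-0.67, SE 0.28, adjusted p = 0.16 and -0.76, SE 0.27, adjusted p = 0.098). Without WT replicate 3, 7 of the 14 fell, against 3.12% of all genes in that fit, Acta2 by 0.93 (SE 0.24, adjusted p = 0.028), Lmod1 by 1.01 (SE 0.23, adjusted p = 0.016) and the actin-binding protein gene Tagln by 0.78 (SE 0.21, adjusted p = 0.033). That mouse was singled out after its values were seen. Smtn, which encodes smoothelin of contractile muscle, fell in either fit, at 266 and 282 (long-named) and 245, 209, 224 and 187 (short-named) CPM against 273, 337 and 376 (-0.48, SE 0.11, adjusted p = 0.015). Synpo2, an actin-bundling protein gene of muscle, was the gene called higher, at 69.4 and 84.1 (long-named) and 60.6 to 101 (short-named) CPM against 31.96 to 68.5 (0.75, SE 0.19, adjusted p = 0.024), and its call ended without APP replicate 3 or 4 or WT replicate 2 or 3, at adjusted p = 0.052 to 0.063. The summed level of the 14 genes was 1646 to 1683 CPM in long-named APP, 1664 to 1854 in short-named APP and 1332 to 2885 in WT.

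**Figure D4:**
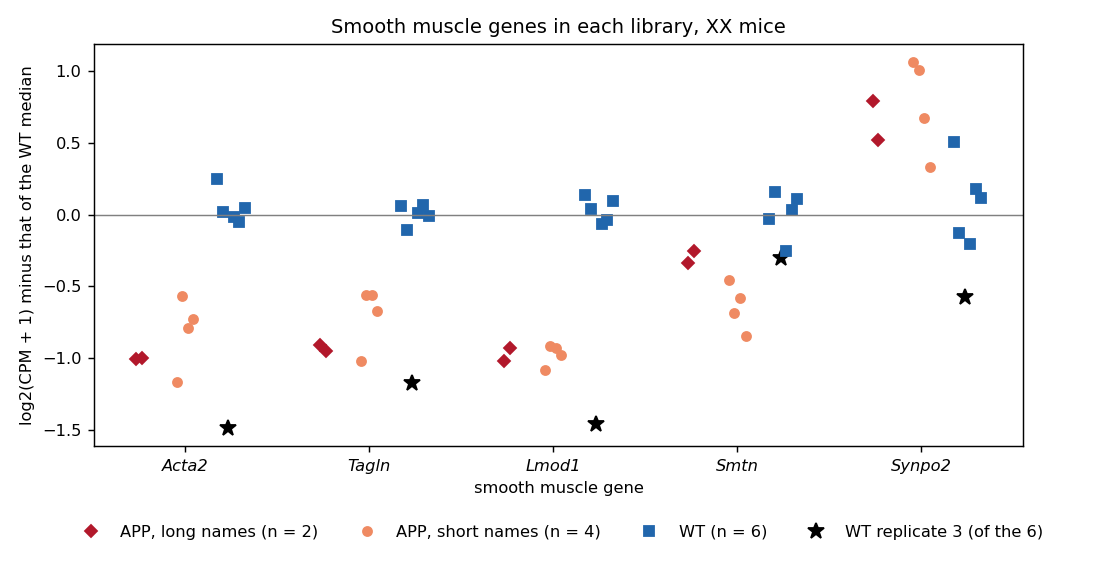
Each point is 1 library of an XX mouse, and the vertical axis is log2(CPM + 1) minus that of the WT median for 5 smooth muscle genes; diamonds are long-named APP, circles short-named APP, squares WT, and the star is WT replicate 3. In Acta2, Tagln and Lmod1 the star lies below every other point (162.9 CPM for Acta2) and the other WT points lie above all APP points.

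Of 14 pericyte genes 1 was called higher and 0 lower with all 12 mice, and its call ended without APP replicate 3, 5 or 6 or WT replicate 5 or 6. With the short-named mice 5 of the 14 were called higher, against 6.89% of all genes, and with the long-named ones 0, and the medians were 0.36 and 0.01. Of 11 fibroblast genes 3 were called higher, against 2.42% of all genes, and 0 lower. The number higher was 1 to 3 when 1 library was left out and 1 without WT replicate 3. Dcn, which encodes decorin of the vessel's outer coat, was at 4.17 and 12.7 CPM in long-named APP, 16.4, 11.7, 19.9 and 40.7 in short-named APP and 2.29, 4.14 and 5.82 in WT (1.68, SE 0.40, adjusted p = 0.017), with 1 long-named mouse inside the WT range. Among 14 astrocyte genes 1 rose. It was Gfap, the filament gene of reactive astrocytes (chromosome 11, 102887336 to 102900912), at 49.4 and 24.96 (long-named) and 78.1, 62.6, 45.6 and 39.5 (short-named) CPM against 5.67, 9.77 and 17.9 (2.20, SE 0.35, adjusted p = 0.00092), and it was also called with the long-named mice alone (1.79, SE 0.34, adjusted p = 0.023). The other 13 astrocyte genes were not called, and the list's median was -0.37 with the long-named mice and 0.40 with the short-named ones.

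Myelin and neuronal transcripts were high in the short-named APP libraries. Of 10 oligodendrocyte and myelin genes 6 rose and 1 fell with all 6 mice, against 2.42% and 2.95% of all genes. The higher calls were 4 to 9 when 1 library was left out. With the 4 short-named ones 9 rose, against 6.89% of all genes, and 1 fell, against 7.26%, while limma called 0 with the 2 long-named ones, with 2 at an unadjusted p under 0.05. Their summed level was 746 to 967 CPM in long-named APP, 2043 to 3513 in short-named APP and 859 to 1214 in WT, and no member was at 0 in any XX library. Mal, the gene that fell, makes up much of the sums in long-named APP (383 and 489 CPM) and in WT (529 to 793). The list's median was 0.37 with the long-named mice, where 7 of the 10 differences were positive, and 1.89 with the short-named ones. Cldn11, a tight junction gene of myelin, was at 7.15 and 4.91 (long-named) and 12.5, 11.2, 16.96 and 16.6 (short-named) CPM against 0.939, 3.12 and 4.704 (1.58, SE 0.35, adjusted p = 0.011). Aspa (1.04, SE 0.22, adjusted p = 0.0081), Cnp (0.70, SE 0.16, adjusted p = 0.014) and Mog (1.43, SE 0.34, adjusted p = 0.015), an enzyme gene of acetylaspartate, an enzyme gene of myelin and a gene of myelin's outer surface, rose as well, each with a long-named library inside the WT range. Mal, a membrane raft gene of myelin and epithelia, fell instead, at 383 and 489 (long-named) and 439.8, 338, 386 and 603 (short-named) CPM against 529, 707 and 793 (-0.67, SE 0.13, adjusted p = 0.0044). The part that myelin and neuronal RNA in the preparations plays in the other differences was not tested.

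Of 9 general neuronal genes 3 were called higher with all 12 mice, against 2.42% of all genes. None of these 3 calls held in all 12 fits that left out 1 library. With the short-named mice 7 rose, against 6.89% of all genes, and 1 fell, against 7.26%, while limma called 0 with the long-named ones, with 0 at an unadjusted p under 0.05. Leaving out 1 library gave 0 to 7 higher with all 6 mice, and 0 without WT replicate 3. Their sums were 157 to 209, 318 to 527 and 145 to 234 CPM in long-named APP, short-named APP and WT. Rims1, a scaffold gene of the presynaptic release site, was at 9.97 and 2.88 (long-named) and 29.8, 25.9, 42.6 and 30.1 (short-named) CPM against 0.714, 1.04 and 4.997, with 1 long-named value inside the WT range (2.91, SE 0.60, adjusted p = 0.0067). Camk2a, a synaptic kinase gene (2.49, SE 0.74, adjusted p = 0.049), and Kif5a, a neuronal kinesin gene (2.57, SE 0.74, adjusted p = 0.042), were high in short-named APP at 119.6 to 264 and 577 to 1102 CPM. In long-named APP Camk2a was at 19.2 and 68.4 and Kif5a at 82.3 and 229, within or just above the WT ranges of 8.003 to 65.1 and 27.9 to 228. The calls of both held only without APP replicate 1, APP replicate 2 or WT replicate 1, and ended in the other 9 fits at adjusted p = 0.058 to 0.12. Rph3a, a synaptic vesicle gene at 4.23 and 11.9 (long-named) and 29.9 to 57.4 (short-named) CPM against 0.904 to 8.62 (2.48, SE 0.62, adjusted p = 0.022), lost its call without APP replicate 3, 4, 5 or 6 or WT replicate 6, at adjusted p = 0.051 to 0.061. All 13 mitochondrially encoded genes had positive differences with all 6 mice, with a median of 0.60, but limma called 0 of them, with 12 at an unadjusted p under 0.05. With the short-named mice 3 of the 13 were called higher, against 6.89% of all genes, and with the long-named ones 0, and the medians were 0.67 and 0.41.

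Name style parted the APP mice themselves. The largest differences of short-named from long-named mice were those of Gbp2b and Ifi44l upwards and of Pttg1 and Hpgd downwards. Ifi44l, an interferon-inducible gene, was at 0 and 0.0178 CPM in long-named APP, 26.4, 26.3, 12.8 and 14.6 in short-named APP and 0 to 0.0191 in WT. The WT and long-named values are at or below the 3 reads that a count of 0 allows (0.0395 to 0.0573 CPM by library, counting error only), so the fitted 4.31 (SE 0.28, adjusted p = 3.2e-09) is no bound on its fold. Gbp2b, an interferon-induced GTPase gene, was at 0.225 and 0.178 CPM in long-named APP and 99.8, 138, 108 and 115 in short-named APP, and in WT at 226 in replicate 3 and at most 0.473 in the other 5 (6.58, SE 1.30, adjusted p = 0.013 short minus long). Pttg1, which encodes securin, was at 56.7 and 55.9 (long-named) and 3.41, 3.81, 3.25 and 3.43 (short-named) CPM against 48.7, 60.5 and 67.6 in WT (-3.68, SE 0.14, adjusted p = 5e-14 short minus long). Hpgd, which degrades prostaglandins, was at 20.95 and 17.8 (long-named) and 1.99, 1.41, 1.43 and 2.28 (short-named) CPM against 10.6, 21.9 and 36.1 (-2.88, SE 0.35, adjusted p = 3.5e-05). In Pttg1 and Hpgd the long-named APP values lay within the WT range and no short-named value did.

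The other genes that the rule names for this contrast were B3gnt3 (-2.65, SE 0.25), Rps3a1 (-2.22, SE 0.19) and Mrc2 (-2.18, SE 0.49), lower in short-named mice, and the myelin genes Mobp (2.62, SE 0.56), Mbp (2.60, SE 0.59) and Bcas1 (2.58, SE 0.59), higher in them. With a single long-named mouse left out, or 1 other XX library, the calls of this contrast numbered 12 to 105 higher and 16 to 101 lower. Some of the largest falls with all 6 mice belong here. Pttg1 (-2.52, SE 0.72, adjusted p = 0.041) and B3gnt3 (-1.91, SE 0.50, adjusted p = 0.029) had near 0 difference with the long-named mice (-0.07 and -0.14). The call of Pttg1 held only without APP replicate 1 or 2, and ended in the other 10 fits at adjusted p = 0.057 to 0.11. That of B3gnt3 held without APP replicate 1 or 2 or WT replicate 1 or 4 and ended in the other 8 at 0.053 to 0.081. The call of Ifi44l with all 6 mice (2.88, SE 0.74, adjusted p = 0.025) ended without APP replicate 3, 4, 5 or 6 or WT replicate 2 or 6, at 0.051 to 0.071.

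**Figure D5:**
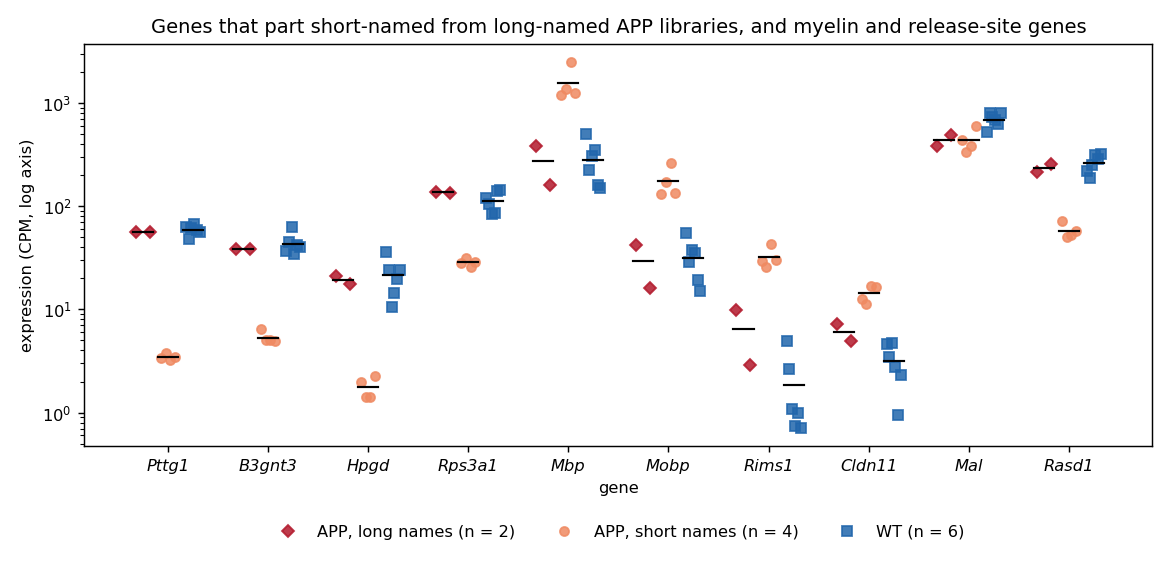
Each point is 1 library of an XX mouse on a logarithmic axis of CPM, with bars for means; diamonds are long-named APP, circles short-named APP and squares WT. In Pttg1, B3gnt3, Hpgd, Rps3a1 and Rasd1 the 4 short-named libraries lie apart from the long-named APP and the WT libraries, in Mbp, Mobp and Rims1 they lie above both, and in Mal the 2 APP sets lie together.

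Of the largest changes, 2 falls vary by single mice in another way. Rpl21, a ribosomal protein gene with near-identical copies that could share reads, was at 3.13 and 32.5 CPM in long-named APP, 3.21, 3.58, 3.53 and 2.298 in short-named APP and 2.96, 35.1 and 54.9 in WT, so that low libraries occur in both genotypes. Its call (-2.18, SE 0.62, adjusted p = 0.041) held only without APP replicate 2 or without WT replicate 6, and ended in the other 10 fits at adjusted p = 0.06 to 0.098. Upk1b, a tetraspanin gene, was at 17.6 and 13.4 (long-named) and 8.89, 11.3, 0.887 and 8.99 (short-named) CPM against 15.9, 29.7 and 40.8 (-1.66, SE 0.47, adjusted p = 0.039), and its call held without APP replicate 1 or 2 or WT replicate 3 or 4 and ended in the other 8 fits at 0.06 to 0.091.

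Whether the genotype differences depend on sex was tested as an interaction with the 12 XY mice, where the WT libraries have short names. It called 678 genes with a more positive difference in XX mice (4.94%) and 291 with a more negative one (2.12%), 7.05% in all, but 55 and 57 without the short-named APP libraries. Crym, a thyroid hormone-binding protein gene (4.79, SE 0.74, adjusted p = 0.0025), Kif5a (4.87, SE 1.05, adjusted p = 0.012) and Camk2a (4.55, SE 1.04, adjusted p = 0.015) were among the largest. The plaque genes Cst7 (-0.14, SE 0.68, adjusted p = 0.93), Clec7a (-0.31, SE 0.49, adjusted p = 0.74) and Itgax (0.07, SE 0.44, adjusted p = 0.95) were not called. Sex and name style cannot be told apart among the WT mice.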

How the data were processed

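RNA of 24 libraries was measured, and the 12 of XX mice are described; the fits used all 24. Per the labels' protocols, RNA came from a column kit and an mRNA library kit took 200 ng of it. The submitters' processing notes name the build mm10. The aligner, counter, annotation and strand setting were not given in the sources used here. Genes that overlap or have near copies may therefore share reads. CPM was taken as the unit of the deposited table, whose column headers end in norm and do not name it. The listed genes summed to 99.331 to 99.447% of the total that CPM implies. Each column's values were whole multiples of 1 step within 0.01 reads (100% of values). The read totals follow from that step if the unit is CPM. Of 15346 rows, 1598 had no value and 10 repeated rows of 2 symbols were removed. Every tested gene was above 0 in all WT XY libraries and at 1 CPM or more in at least 12 libraries, so genes detected only in APP mice cannot appear. A gene below 1 CPM in all WT libraries could enter if it was higher in APP mice, but not if it was lower.

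Values were analysed as log2(CPM + 1), which understates changes of low genes, with limma 3.58.1 (mean-dependent prior) in R 4.3.3: 4 group means for the comparison of 6 with 6 and for the interaction, and 6 means, with APP split by name style, for the others. The design states 6 mice per group, and p-values rest on the spread among them. On simulated data of 13738 genes the 6 against 6 fit found 57% of the genes altered by 0.5 log2 units and 85% at 1 unit. Of its calls 4.7% were on unaltered genes. For 2 against 6 the figures were 31%, 72% and 6.4%. The simulated spread came from the WT groups alone. For 6 against 6 all 6 APP libraries were altered alike, with no name style difference, so these figures need not hold for the real libraries. At 52.39 to 75.93 M reads a count of 0 allows up to 0.0395 to 0.0573 CPM (3 reads, counting error only).

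The genes and the 55 gene lists (752 of 825 symbols measured) were chosen with earlier results of these data known. Named are the 10 largest rises and falls of 6 against 6 (mean of at least 1 CPM, no numbered models), the 10 of each separated in every library by the smaller of the differences of the 2 name styles, from each list described up to 5 genes ranked by p, the 5 largest of each other contrast and label checks; some of these are not reported here. Replicate numbers did not pair the samples. Positions are from GENCODE vM21. Alternatives covered pseudocount, low-value filter, scaling, sample set, covariates, block and each library left out.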

Additional observations from a re-analysis of the deposited data

Results flagged for a closer look

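The difference between APP and WT differed between XX and XY mice, by the interaction test, for 37 of the genes described. Of all genes 7.05% were called by this test, and some of the 37 were named for the size of this difference. More positive in XX mice on the log2 scale were Kif5a (4.87), Crym (4.79), Camk2a (4.55), Rph3a (4.26), Rims1 (3.99), Mbp (3.72), Bcas1 (3.57), Mobp (3.47), Cldn11 (2.29), Gfap (2.21), Mog (2.11), Aspa (1.25), Lpl (1.09), Smad9 (0.91), Cnp (0.85), Prnp (0.64), Cxcl12 (0.62). More negative were Upk1b (-2.47), Hsf2bp (-1.76), Rasd1 (-1.66), Tmem252 (-1.64), Abhd15 (-1.54), Hspa1b (-1.52), Ddit4 (-1.51), Slco4a1 (-1.50), Hspa1a (-1.37), Nod2 (-1.32), Kcna5 (-1.22), Angptl4 (-1.17), Cttnbp2nl (-1.04), Usp54 (-1.01), Per1 (-0.93), Bag3 (-0.81), Stab1 (-0.69), Sema3g (-0.61), Sorbs3 (-0.48), Rela (-0.46). Adjusted p-values ranged from 0.0025 to 0.048, and WT XY libraries have short names where WT XX libraries have long ones. Without the short-named APP libraries the test called 55 of all genes more positive in XX mice and 57 more negative.

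A single library stood far from the other 5 of its group, by Dixon's test at the 95% level, which chance exceeds in about 1 of 20 groups. In WT replicate 3 this held for Ifi44 (64.4 CPM, highest), Lilrb4a (13.002 CPM, highest), Fth1 (1168 CPM, highest), Lmod1 (12.011 CPM, lowest), Tagln (102 CPM, lowest), Acta2 (163 CPM, lowest), Gbp2b (226 CPM, highest), B3gnt3 (62.7 CPM, highest). In APP replicate 2 it held for Cttnbp2nl (296 CPM, highest) and Rpl21 (32.5 CPM, highest). In APP replicate 3 it held for Siglec1 (7.60 CPM, highest). In APP replicate 5 it held for Crym (38.0 CPM, highest). In WT replicate 1 it held for Tfrc (286 CPM, highest) and Smad9 (10.7 CPM, highest). In WT replicate 2 it held for Mrc2 (54.1 CPM, highest). In WT replicate 4 it held for Ccl4 (369.9 CPM, highest). In WT replicate 5 it held for Ank (54.6 CPM, lowest).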

How the results depend on the processing

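Of the 85 genes described as called with 6 against 6 mice, 66 kept the call in all 12 fits that left out 1 library. Scaling by TMM factors, a pseudocount of 0.25 and a floor of 5 CPM on the mean left the counts of calls within 1.5 times. A fit of the XX libraries alone gave 422 higher and 556 lower, against 332 and 405 with all 24 libraries in the fit. The genes called in both of these fits numbered 651. The counts moved most in the settings on name style. A covariate for it left 53 genes higher and 29 lower. Long names alone gave 31 and 6, with fewer APP mice. Limiting the XX mice to names that start alike (2 APP against 2 WT mice), with all XY libraries kept in the fit, gave 9 and 0. In that fit Tmem252 (0.15), Rasd1 (0.21), Cnp (-0.03), Camk2a (-0.32), Kif5a (-0.19) and Pttg1 (0.02) changed sign. In these smaller sets name style and the number of mice cannot be told apart. Without 1 library the counts with 6 against 6 were 148 to 491 higher and 190 to 513 lower. They were 6 to 27 and 0 to 8 for the 2 long-named mice, 596 to 1061 and 663 to 1118 for the 4 short-named ones, and 12 to 105 and 16 to 101 between the name styles. Where an APP set kept 1 library, that library is assumed to vary like the others. For the long-named mice a floor of 5 CPM gave 15 higher, and XX libraries alone gave 8 lower. Between the name styles a floor of 5 CPM gave 43 higher, with fewer genes tested. The interaction fell to 55 and 57 genes without the short-named APP libraries. Apart from the smaller sets of genes or mice, the cause of these moves was not tested. Replicate numbers were fitted as a replicate block in an added term of the 6 against 6 fit, giving 307 higher and 452 lower; the correlation of same-numbered mice ran from -0.266 to 0.136 and no APP mouse matched its own number best, so the numbers do not pair the mice. The planned edgeR and DESeq2 fits on reads recovered from the CPM steps were not run.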
